A study of Mus musculus with 2 samples.

Results

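The 40 genes described here code for the core machinery of autophagy, and they were taken by gene symbol from the 55536 genes listed for the series. All 40 symbols matched exactly 1 gene in both libraries. They are grouped by role into 8 sets: the ULK1 initiation complex, the phosphatidylinositol 3-kinase (PI3K) complexes, phagophore growth and lipid transfer, ATG12 conjugation, ATG8 processing and lipidation, the ATG8 proteins, cargo receptors, and fusion and tethering. Macroautophagy encloses cytoplasm, organelles or microbes in a growing double membrane, the phagophore, which closes to an autophagosome and fuses with lysosomes. A kinase complex around ULK1 starts the process, a lipid kinase complex around Beclin 1 marks the membrane, and a pair of ubiquitin-like conjugation systems attach ATG8 proteins such as LC3 to it, where cargo receptors bind. In macrophages the same machinery also acts on engulfed or invading microbes and restrains inflammatory signalling.

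The study sequenced total RNA, depleted of ribosomal RNA, from the nuclear (nucleoplasmic) fraction of primary bone-marrow-derived macrophages from C57BL/6J mice. The single group had received Lipid A, the TLR4-activating moiety of lipopolysaccharide, at 100 ng/ml for 12 h, then a washout of 12 h. The same dose was then given once more for 10 min. It holds 2 biological replicates, with a starting quantity of 1 µg for replicate 1 and 500 ng for replicate 2. Both carry 1 donor identifier, and the labels do not say whether they came from separate cultures or animals, so the spread between them may be technical. No untreated cells, other times or other fractions were analysed here, so no value below is a response to Lipid A, and with 1 group no test between conditions exists. Levels are nuclear RNA, which includes unspliced precursors, and not cytoplasmic mRNA or protein.

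The gene totals were 24444219 expected counts for replicate 1 and 18051097 for replicate 2. All 10 macrophage markers were detected, with a median of 112 TPM, a level per transcript length scaled to the library. None of the marker lists of 7 other lineages had a detected gene. Their highest summed level was 1.76 TPM in replicate 1 and 1.31 in replicate 2, for 5 dendritic cell markers, of which Ccr7 stood at 0.86 and 0.43 TPM. Their part in the results was not tested.

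Autophagy genes were expressed in these nuclei almost without exception. Detection, meaning 1 TPM or more from 10 or more counts in each library, was reached by 38 of the 40 genes, against 42.9% of all 22028 protein-coding genes. The exceptions were Wipi1, a phosphoinositide-binding protein of the WIPI family, and Map1lc3a, which codes for the ATG8 protein LC3A. Wipi1 sat at the limit, with 1.03 and 0.98 TPM from 89 and 60 counts in replicates 1 and 2. Map1lc3a reached 0.61 and 0.74 TPM from only 19 and 14 counts.

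Levels were moderate and close to those of other expressed genes. The median of the 40 genes was 6.75 TPM, from 5.87 in replicate 1 and 7.91 in replicate 2. Over the 38 of them that were detected it was 7.465 TPM, beside 7.99 over the 9443 detected protein-coding genes. Of the 40, 26 lay in the middle 50% of those genes (3.83 to 17.5 TPM), 9 above it and 5 below it. The 2 libraries ordered the genes alike, with a Pearson correlation of 0.98 on log2(TPM + 1) and a Spearman correlation of 0.95 across the 40 genes, which are not independent replicates and share each library's depth.

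**Figure D1:**
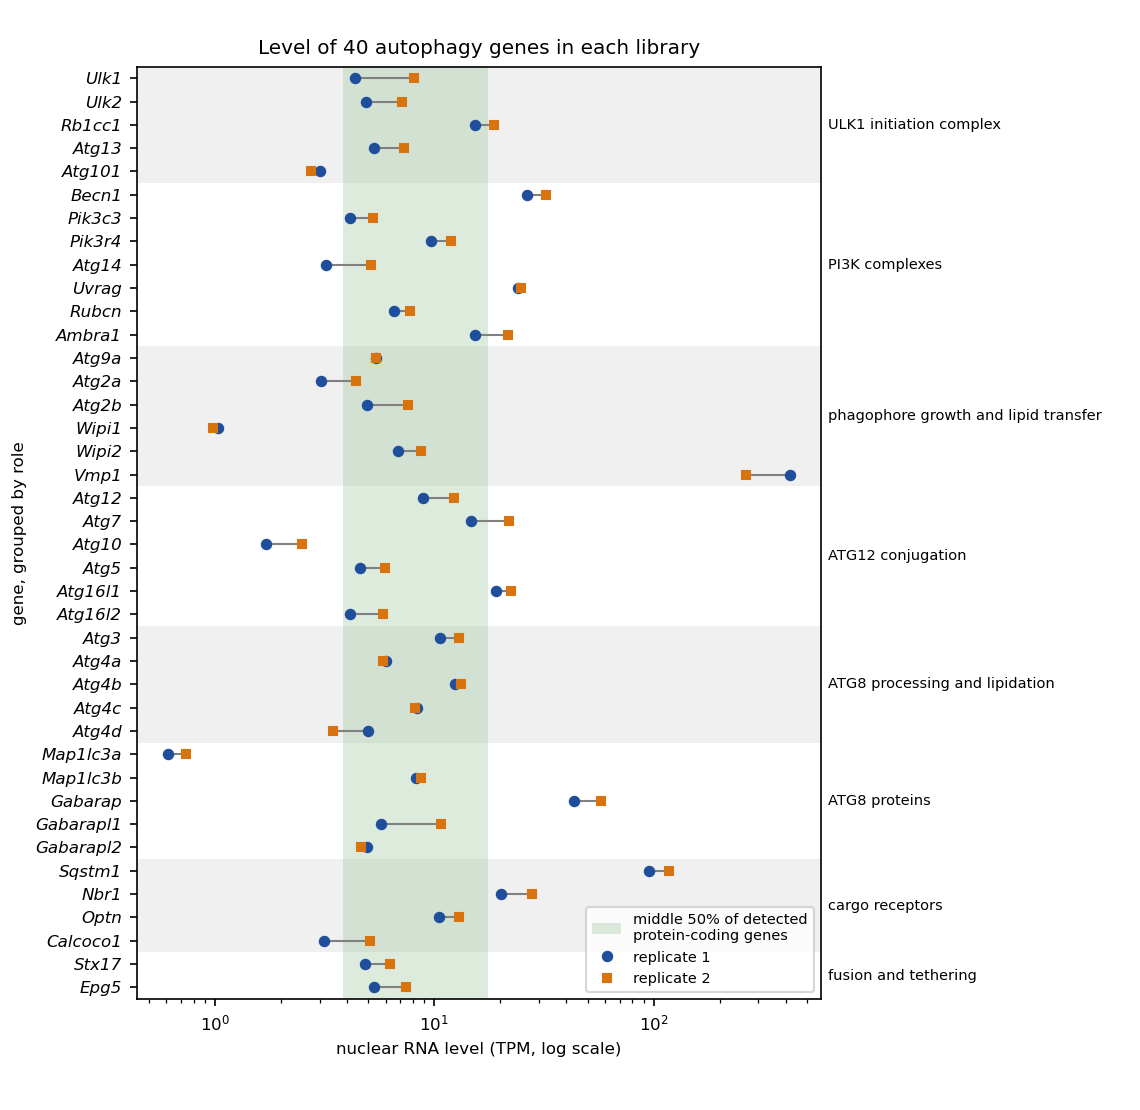
TPM of each of the 40 autophagy genes on a log scale, by role, with 1 point per library joined by a line and the middle 50% of detected protein-coding genes (3.83 to 17.5 TPM) shaded. Vmp1 lies far to the right at 417 and 264 TPM, and Map1lc3a and Wipi1 lie at the left end, near 1 TPM.

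The member that stood farthest from the others was Vmp1, an endoplasmic reticulum membrane protein with lipid scramblase activity that autophagosome formation requires. Its gene (ENSMUSG00000018171.9, mm10 chr11:86583865-86683836, minus strand) reached 417 TPM in replicate 1 and 264 TPM in replicate 2, from 19802 and 10207 counts. It ranked 46 among all protein-coding genes by mean TPM and made up 48.6% and 32.2% of the summed TPM of the 40 genes. By counts, which do not weight short transcripts up, its part was 32.5% and 22.0%.

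Most of that TPM was assigned to a short transcript at the 3′ end of the gene and not to the full coding form. Vmp1-206, annotated as a processed transcript of 2 exons and 931 bases, stood at 296 and 151 TPM, or 70.8% and 57.3% of the gene. Vmp1-201, the coding transcript of 12 exons, stood at 111 and 101 TPM. The other deposited quantification gave Vmp1-206 a similar part of the gene, 72.3% and 57.3%. By counts the order of the forms was reversed, with 42.3% and 29.1% on Vmp1-206 and 57.1% and 70.1% on Vmp1-201. The coding form alone would still rank 2 among the 40 genes by mean TPM.

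Vmp1-206 begins 396 bases upstream of the exon before the last of Vmp1-201, in what is an intron of that form, and shares its other 535 bases with exons of Vmp1-201. The opening of the transcript (chr11:86586895-86586994, minus strand, mm10, GENCODE M21) is shown because it sets this form apart from Vmp1-201. The second line shows where that stretch meets the coding exon that both forms share, in capitals (chr11:86586569-86586628, minus strand).
Vmp1-206 start: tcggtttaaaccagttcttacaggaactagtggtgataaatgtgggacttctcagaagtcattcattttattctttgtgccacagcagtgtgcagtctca
Vmp1-206 boundary: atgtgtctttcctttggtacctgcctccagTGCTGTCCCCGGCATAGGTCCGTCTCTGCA

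The same stretch of chromosome holds Mir21a, the gene of miR-21, a microRNA abundant in myeloid cells. The primary transcript of miR-21 is known to start within a late intron of Vmp1. The hairpin (chr11:86584067-86584158, minus strand) lies in exon 12 of Vmp1-201, in its 3′ untranslated part, and 861 bases beyond the annotated end of Vmp1-206. The mature strands from RefSeq (GRCm38.p6) are shown with the seed, bases 2 to 8, in capitals, since miR-21 is the other known product of this stretch.
mmu-miR-21a-5p: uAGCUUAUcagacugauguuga
mmu-miR-21a-3p: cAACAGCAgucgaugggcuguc
The Mir21a entry itself was listed at 0 in both libraries with an effective length of 0, which does not show that the RNA was absent. Reads in the overlap of Vmp1 with a primary miR-21 transcript cannot be told apart by gene in these tables.

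**Figure D2:**
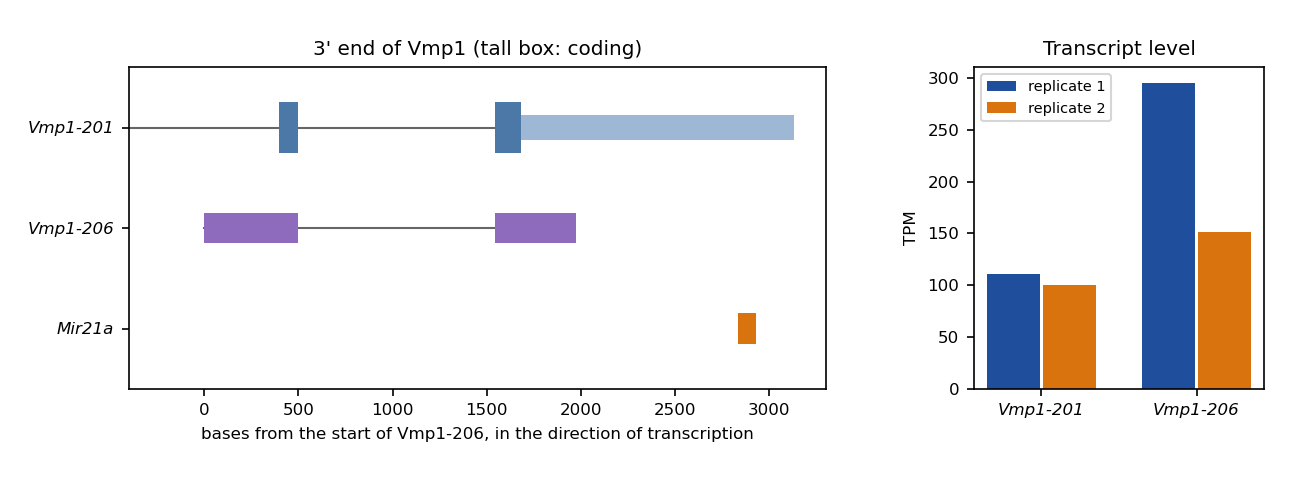
Left, exons at the 3′ end of Vmp1 by distance from the start of Vmp1-206 in bases, with coding parts as tall boxes and the Mir21a hairpin below. Right, TPM of the 2 transcripts in each library: Vmp1-206 is higher than Vmp1-201 in both, at 296 against 111 in replicate 1 and 151 against 101 in replicate 2.

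The ULK1 initiation complex was detected in full, 5 of 5, with a median of 6.22 TPM. Rb1cc1, which codes for the scaffold FIP200, was its highest member at 15.4 and 18.8 TPM in replicates 1 and 2. The kinase genes Ulk1 and Ulk2 stood at 4.36 and 8.08 TPM and at 4.90 and 7.09 TPM. Atg13, the adaptor that joins the kinase to FIP200, was at 5.32 and 7.27 TPM. Atg101, which stabilises ATG13, was the lowest of the complex at 3.0 and 2.74 TPM. Rb1cc1 was above the other 4 in both libraries, with no overlap.

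Genes of the PI3K complexes were also detected in full, 7 of 7, and had a median of 10.8 TPM. Becn1, which codes for the central subunit Beclin 1, led with 26.4 and 32.2 TPM. Uvrag, the subunit of the form that acts on endosomes and later autophagosomes, followed at 24.0 and 24.9 TPM, and its counterpart Atg14, which directs the complex to the phagophore, was far lower at 3.22 and 5.13 TPM. Uvrag thus exceeded Atg14 in both libraries, without overlap. Ambra1, a Beclin 1 regulator, was at 15.3 and 21.8 TPM, and Pik3r4, the pseudokinase subunit, at 9.65 and 12.0 TPM. The catalytic subunit gene Pik3c3 had 4.11 and 5.28 TPM, less than Becn1 and Pik3r4 in both libraries. These are orders of gene totals and not of coding forms. Protein-coding transcripts held 6.87% and 7.92% of the TPM of Becn1 and 26.86% and 28.25% of that of Pik3r4. For Pik3c3 they held 61.1% and 75.02%. For Uvrag they held 33% and 27.8%, and for Atg14 74.9% and 84.7%. Rubcn, which restrains the UVRAG form in autophagy and is required for LC3-associated phagocytosis, had 6.55 and 7.73 TPM.

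Phagophore growth and lipid transfer genes had a median of 5.85 TPM with Vmp1 included. Wipi2, the family member that recruits ATG16L1, stood at 6.86 and 8.72 TPM, above Wipi1 in both libraries. Atg9a, the scramblase carried by ATG9 vesicles, was level at 5.41 and 5.43 TPM. The lipid transfer protein genes Atg2a and Atg2b had 3.05 and 4.41 TPM and 4.95 and 7.59 TPM.

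All 6 genes of the ATG12 conjugation system were detected, over a wide range. By gene total, Atg16l1, whose product positions the conjugate on the membrane, was highest at 19.2 and 22.4 TPM. Atg7, the E1-like enzyme of both conjugation systems, had 14.7 and 21.8 TPM. Atg12, the ubiquitin-like modifier, was at 8.88 and 12.3 TPM and its target Atg5 at 4.59 and 5.94 TPM. Atg16l2, a paralog of Atg16l1, had 4.13 and 5.81 TPM. Atg10, the E2-like enzyme that joins ATG12 to ATG5, was the lowest detected autophagy gene at 1.71 and 2.50 TPM from 89 and 92 counts. The order Atg7 over Atg12 over Atg5 over Atg10 held in each library for gene totals. These are not orders of coding forms. Protein-coding transcripts held 50.6% and 47.5% of the TPM of Atg16l1 and 82.8% and 84.1% of that of Atg7. They held 46.6% and 38.8% for Atg12, and 100% for Atg5 in both libraries.

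Of the ATG8 proteins, the gene for GABARAP led and that for LC3A was undetected. Gabarap had 43.2 and 57.8 TPM in replicates 1 and 2. Map1lc3b, which codes for the marker protein LC3B, had 8.26 and 8.74 TPM. Gabarapl1 stood at 5.71 and 10.7 TPM and Gabarapl2 at 4.93 and 4.63 TPM, so the order of Map1lc3b and Gabarapl1 differed between libraries. Among the genes that process ATG8 proteins, the protease gene Atg4b was highest, at 12.4 and 13.3 TPM. Atg3, the E2-like enzyme of lipidation, was beside it at 10.7 and 13.0 TPM. The other proteases followed, with 8.31 and 8.13 TPM for Atg4c, 6.02 and 5.82 TPM for Atg4a, and 4.99 and 3.44 TPM for Atg4d. This order is one of gene totals and not of coding forms. Protein-coding transcripts held 21.6% and 31.4% of the TPM of Atg4b. They held 62.8% and 70.9% for Atg3, and 66.2% and 94.2% for Atg4c.

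Cargo receptor genes had the highest median of the 8 roles, 17.9 TPM over 4 genes. Sqstm1, which codes for p62, the receptor that carries ubiquitinated cargo, had 95.2 and 118 TPM and was second to Vmp1. Nbr1, a partner receptor of p62, had 20.2 and 27.8 TPM. Optn, which codes for the mitophagy and xenophagy receptor optineurin, was at 10.5 and 13.0 TPM. Calcoco1, a receptor for parts of the endoplasmic reticulum, was lower at 3.15 and 5.07 TPM. Of the fusion and tethering genes, Stx17, the SNARE of the autophagosome, had 4.85 and 6.30 TPM, and Epg5, a tether to lysosomes, had 5.30 and 7.41 TPM.

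The 2 replicates differed little for most autophagy genes. The log2 ratio of TMM-normalised counts, replicate 2 over replicate 1, had a median of 0.07 over the 40 genes and of 0.01 over the 11751 protein-coding genes that averaged 10 counts or more. None of the 40 passed 2-fold, against 6.21% of those protein-coding genes (2.14% higher and 4.07% lower in replicate 2). The protein-coding genes were not matched to the 40 on counts. Past 1.5-fold there was only Vmp1, at -0.68 with an exact 95% counting interval from -0.72 to -0.65. At the other end was Atg2b, at 0.54 (0.42 to 0.66). Ratios were above 0 for 25 genes and below 0 for 15, and 50.6% of the protein-coding genes were above 0. These intervals cover counting error only, so an interval that leaves out 0 shows a difference between 2 libraries and not between conditions.

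**Figure D3:**
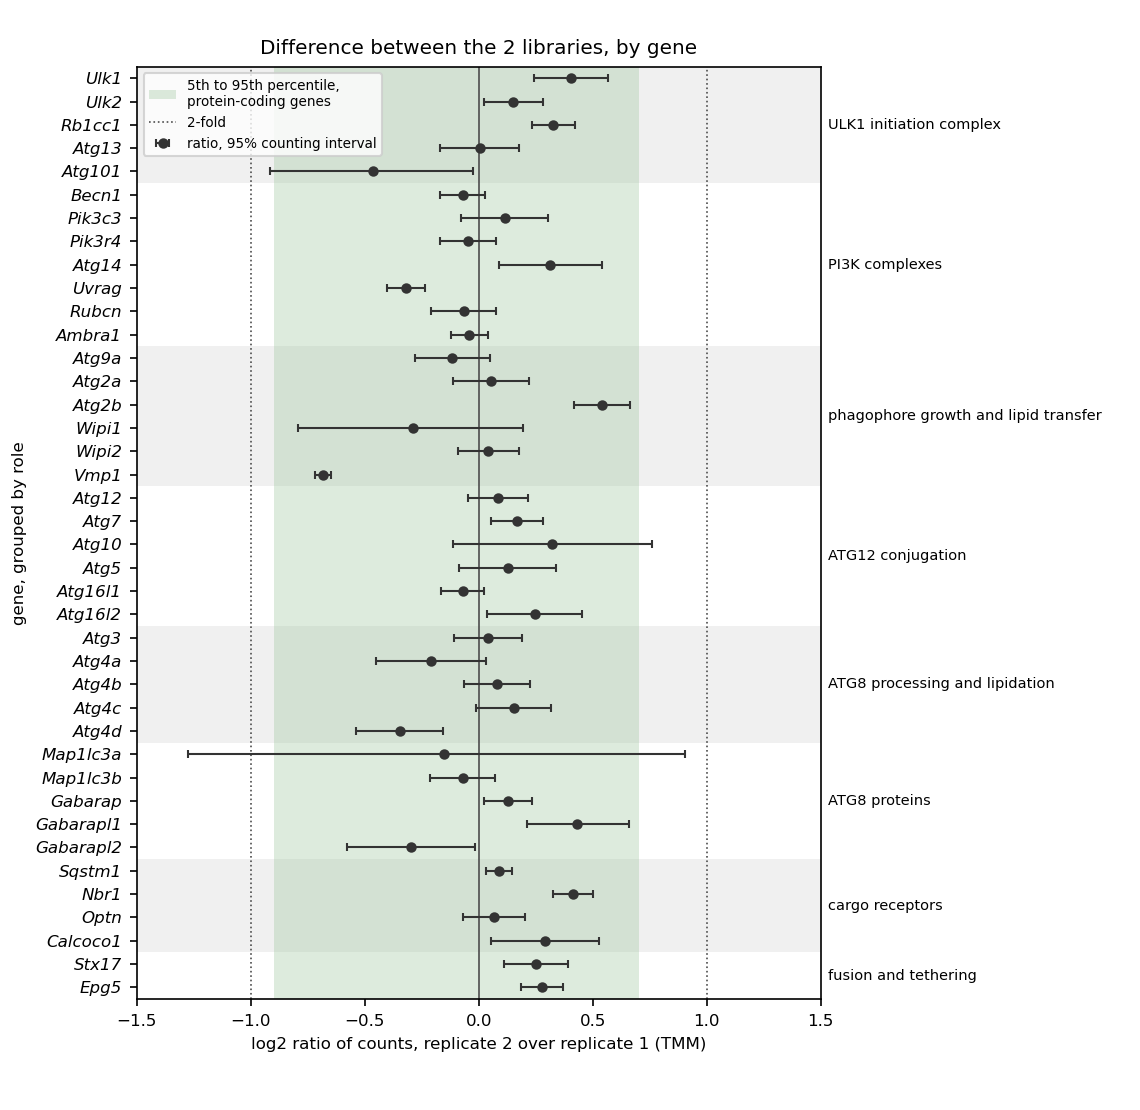
Log2 ratio of TMM-normalised counts, replicate 2 over replicate 1, for each of the 40 genes with exact 95% counting intervals. The shaded band is the 5th to 95th percentile of protein-coding genes (-0.90 to 0.70), dotted lines mark 2-fold, and every point lies within the band, from -0.68 for Vmp1 to 0.54 for Atg2b.

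The counting interval left out 0 for 19 of the 40 genes, 14 above and 5 below, beside 53.6% of the 11751 protein-coding genes (26.2% above and 27.5% below). After Atg2b, the highest were Gabarapl1 at 0.43 (0.21 to 0.66), Nbr1 at 0.41 (0.33 to 0.50) and Ulk1 at 0.40 (0.24 to 0.57). All 4 cargo receptors had ratios above 0, from 0.07 for Optn to 0.41 for Nbr1, as did Stx17 at 0.25 and Epg5 at 0.28. The interval of Optn included 0 (-0.07 to 0.20). The signs of the cargo receptors, Stx17 and Epg5 were the same in the other quantification, where Optn was at 0.03 and Sqstm1 at 0.02. They were also the same on TPM, which shifted the median protein-coding gene up. Library totals and DESeq2 size factors move all genes by 1 constant. The median protein-coding gene was at 0.17 with library totals and at 0.01 with DESeq2 size factors, so these signs, all above 0, were kept. Below 0, beside Vmp1, were Atg101 at -0.46, Atg4d at -0.34, Uvrag at -0.32 and Gabarapl2 at -0.30. Of these, Uvrag was at 0.05 on the TPM scale, and Gabarapl2 was at -0.01 in the other quantification. On the TPM scale 33 of the 40 genes were higher in replicate 2, where the median protein-coding gene was shifted up by 0.20. Scaled by library totals the count above 0 was also 33, with a protein-coding median of 0.17.

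Within Vmp1 the short form differed more between libraries than the coding form. Vmp1-206 had 8385 counts in replicate 1 and 2974 in replicate 2, a log2 ratio of -1.22, past 2-fold. Vmp1-201 had 11303 and 7157 counts, a log2 ratio of -0.38. Replicate 1 was the higher for both forms.

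The tables also divide each gene among its annotated transcripts, which differ in whether they code for protein. The median autophagy gene had 68.6% of its TPM on protein-coding transcripts over the 38 detected genes, beside 75.6% over all detected protein-coding genes. Under 50% were 10 of the 38, and 20.7% of detected protein-coding genes. By counts the medians were 88.4% and 89.2%, and 3 of the 38 members were under 50%, against 13.6% of detected protein-coding genes. The leading transcript by TPM was not protein-coding in 5 members (Becn1, Pik3c3, Pik3r4, Uvrag and Vmp1), against 14.2% of detected protein-coding genes with at least 2 transcripts. Of these 5, 4 belong to the PI3K complexes. By counts the leading transcript was not protein-coding in 3 members (Becn1, Pik3c3 and Map1lc3b), against 12.2%. In the other quantification Pik3c3 and Pik3r4 were led by coding forms, and Becn1 and Uvrag by the processed transcripts Becn1-209 and Uvrag-204. Of the 4 PI3K genes, only Becn1 thus had a leading form that was not protein-coding in each of these settings.

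**Figure D4:**
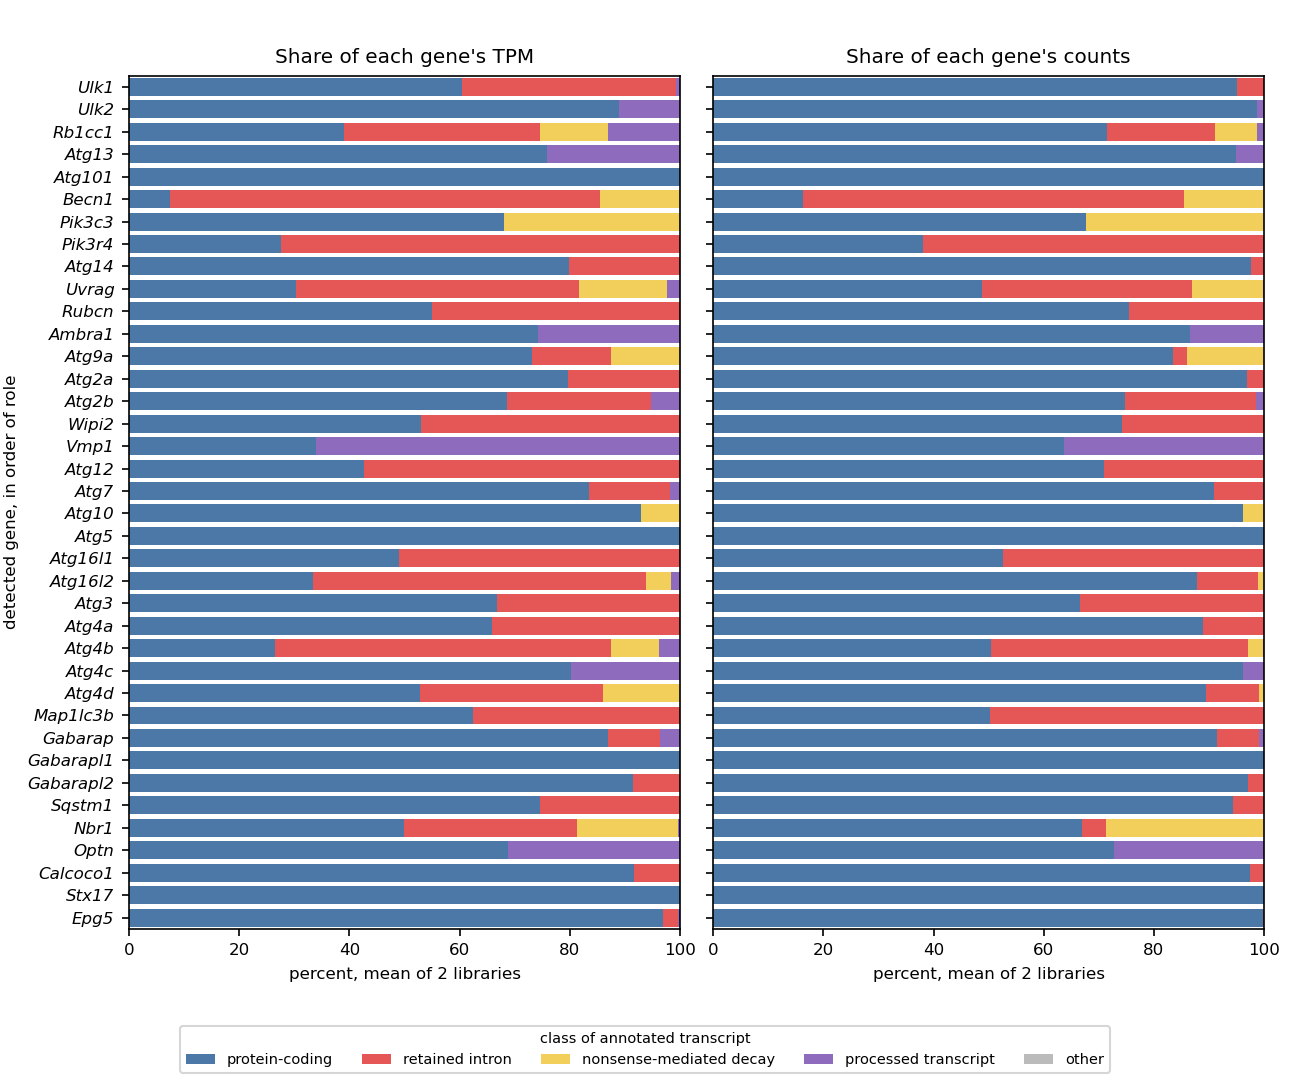
Percent of each detected gene's TPM (left) and counts (right) on transcripts of each annotated class, as the mean of the 2 libraries. Becn1 and Pik3r4 have mostly retained-intron transcripts on both scales, with protein-coding shares by counts of 16.3% and 38.0%, while most other genes are mainly protein-coding by counts.

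Transcripts annotated as retained introns contain all or part of an intron that a coding form removes. Of the 38 detected genes, 26 have such a form beside a coding one, and it took a median of 33.7% of their TPM (36.5% in replicate 1 and 30.2% in replicate 2), against 26.7% over 5972 detected protein-coding genes. By counts the order was the other way round, 11.0% against 15.4%. A share of at least 20% was found in 20 of the 26 (76.9%), and in 63.5% of the background genes. Becn1 had the highest, at 75.1% and 80.9% of TPM, followed by Pik3r4 at 73.1% and 71.8%. Atg4b stood at 68.1% and 53.8%, Atg16l2 at 62.6% and 58.0%, Atg12 at 53.4% and 61.2%, Uvrag at 50.9% and 51.8%, and Atg16l1 at 49.4% and 52.5%. The lowest was Epg5, at 3.73% and 1.76%.

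Becn1 carried little of its signal on coding forms, by either scale. Only 6.87% and 7.92% of its TPM lay on protein-coding transcripts, and 0.879% of detected protein-coding genes had a share as low or lower. Becn1-205, its main coding transcript, had 298 and 232 counts, while the retained-intron forms Becn1-210 and Becn1-202 had 614 and 468 counts and 455 and 447 counts. Becn1-211, which led by TPM at 5.17 and 10.1, rested on 55.7 and 74.3 counts over 487 bases. In Map1lc3b the forms were more even. Its retained-intron form Map1lc3b-202 had 406 and 412 counts, and its coding forms together had 528 in replicate 1 and 322 in replicate 2. Which was the higher thus differed between libraries, and so did the form that led by TPM.

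The start of the intron that is kept or partly covered is shown for the retained-intron form with the most counts of 4 members, with the last coding bases before it in capitals and 5′ to 3′ on the gene's strand (mm10, GENCODE M21). The positions are chr11:101296238-101296277 (minus), chr9:105678301-105678340 (plus), chr7:98906472-98906511 (minus) and chr8:121593526-121593565 (plus), in the order of the lines.
Becn1-210: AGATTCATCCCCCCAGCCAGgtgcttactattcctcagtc
Pik3r4-204: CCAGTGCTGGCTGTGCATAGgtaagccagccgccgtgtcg
Uvrag-206: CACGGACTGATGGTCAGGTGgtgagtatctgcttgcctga
Map1lc3b-202: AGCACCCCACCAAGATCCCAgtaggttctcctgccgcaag
All 4 introns open with gt, the usual splice donor. Becn1-210 keeps intron 4 of Becn1-205 whole, 633 bases, and Map1lc3b-202 keeps intron 2 of Map1lc3b-201 whole, 2440 bases. The other forms end inside the intron. Pik3r4-204 covers 1000 of the 3864 bases of intron 15 of Pik3r4-201. Uvrag-206 covers 2153 of the 17899 bases of intron 14 of Uvrag-201. Pik3r4-204 had 307 and 211 counts and Uvrag-206 had 735 and 377.

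The leading transcript by TPM differed between the libraries in 9 members, against 18.4% of the background genes. They were Pik3c3, Uvrag, Atg9a, Atg12, Atg7, Atg4b, Atg4c, Map1lc3b and Nbr1. Pik3c3 was led by the nonsense-mediated decay form Pik3c3-204 in replicate 1, at 1.60 TPM against 1.28 for the next form, the coding Pik3c3-202. In replicate 2 the coding form Pik3c3-201 led, at 1.53 TPM against 1.32 for Pik3c3-204. Coding forms of Pik3c3 together held 61.1% and 75.02% of its TPM, more than Pik3c3-204 in both libraries.

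In Atg16l1, a coding exon separates the main coding forms. Atg16l1-201 includes exon 8 of 57 bases (chr1:87774813-87774869, plus strand, in capitals below with 20 coding bases on either side), and Atg16l1-202 lacks it. Its length is a multiple of 3.
Atg16l1-201: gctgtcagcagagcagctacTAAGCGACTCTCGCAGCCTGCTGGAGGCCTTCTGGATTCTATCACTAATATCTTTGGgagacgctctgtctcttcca
The form without the exon was the higher in both libraries, at 6.21 and 8.42 TPM against 3.49 and 2.20 TPM. By counts the 2 forms stood at 687 and 650 against 403 and 177. Atg16l1-201 had a log2 ratio of -0.91 between replicates and Atg16l1-202 one of 0.20. The other quantification gave Atg16l1-201 18.8% and 8.64% of the gene, and Atg16l1-202 20.2% and 24.2%.

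Exons of 14 members overlap those of another gene, 13 of them on the opposite strand, and whether the counting used strand is not given in the sources used here. Reads there cannot be assigned with certainty. Atg4d shares 1405 exon bases with Kri1, which had 777 and 582 counts beside 566 and 368 for Atg4d. Becn1 shares 3104 bases with Cntd1, which had 19.2 and 24.8 counts. Uvrag shares 1589 with the antisense gene Gm45187, at 78.7 and 82.7 counts, and Rb1cc1 shares 558 with 4732440D04Rik, at 874 and 594 counts.

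The other deposited quantification, made from reads and an index, placed none of the 40 more than 2-fold from the first in both libraries on the CPM scale (counts scaled to the library total), against 5.58% of protein-coding genes. Atg10 was farthest, at 0.85 and 0.62 on the log2 scale, higher in the other quantification in both libraries. The sign of the replicate ratio differed between the quantifications for 1 of the 40, Wipi1.

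TFEB, TFE3 and MITF, which induce autophagy and lysosome genes when they enter the nucleus, bind a motif with the core CACGTG. Promoter windows of RefSeq (GRCm38.p6), from 250 bases before to 50 after a gene start, were at hand for 33 members, in 39 windows. The core, which reads the same on both strands, was in 5 of the 39 windows (12.8%), against 7.15% of all 32851 windows and 10.5% of those of detected protein-coding genes, so the share was near the background. The window of Atg7 belongs to a RefSeq start 27999 bases inside the gene as quantified and is not shown. The other 4 are shown with the core in capitals, 30 bases each, 5′ to 3′ on the gene's strand. For Atg14 and Rubcn the RefSeq starts lie 2215 and 9400 bases inside the gene's span, but within 15 bases of the start of Atg14-201 and Rubcn-201, the forms with the most counts.
Atg5 promoter, chr10:44268313-44268342 (plus): cggagcgcttgcCACGTGgtcttggtgacg
Atg14 promoter, chr14:47568418-47568447 (minus): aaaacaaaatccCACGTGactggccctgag
Rubcn promoter, chr16:32868437-32868466 (minus): cgcctagcacatCACGTGtacccaggttag
Atg3 promoter, chr16:45158723-45158752 (plus): gcctccttttgtCACGTGtcctgggagagt
Atg3 holds a second copy, at -71 relative to the gene start, beside that at -94. A match describes letters in a window and no binding was measured. The 4 genes shown ranged in level from Atg14 at 3.22 and 5.13 TPM to Atg3 at 10.7 and 13.0 TPM.

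Among 75 other genes of the pathway, 72 were detected, with a median of 12.3 TPM. Of all 22028 protein-coding genes, 42.9% were detected. The lists below were chosen with earlier results of these data known. Of 18 genes of nutrient and transcriptional control, 17 were detected, at a median of 10.5 TPM. They were led by Flcn, a regulator of TFE factors at lysosomes, at 27.8 and 40.9 TPM, Tfe3 at 22.8 and 24.7 TPM, Mitf at 20.9 and 18.6 TPM and Rheb, the GTPase that activates mTORC1, at 13.6 and 15.5 TPM. Foxo1, a transcription factor of stress and nutrient signals, was the undetected member at 0.81 and 1.26 TPM. Of 10 partners of the PI3K and early machinery, 9 were detected, led by Tecpr1, which binds damaged or conjugated membranes, at 74.8 and 106 TPM. Pi4k2a, a lipid kinase, had 30.5 and 24.4 TPM, Tmem41b, a scramblase that works with VMP1, 12.7 and 16.3 TPM, and Wdr45b, a WIPI protein, 10.7 and 13.9 TPM. Fez1 was at 0 in both libraries.

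Of 18 further selective receptors and adaptors, 17 were detected, at a median of 10.3 TPM. Ncoa4, the receptor for ferritin, stood at 46.7 and 57.7 TPM, Fkbp8, a mitochondrial receptor, at 46.4 and 49.9 TPM, Tbk1, the kinase of OPTN and p62, at 46.2 and 47.8 TPM and Wdfy3, a large scaffold, at 28.0 and 30.9 TPM. Stbd1, a glycogen receptor, was undetected, with 1 count in replicate 1 and 0 in replicate 2. All 15 genes of fusion with lysosomes were detected, at a median of 17.6 TPM. Rab7, the late endosomal GTPase, had 42.6 and 54.7 TPM, Vamp8, a lysosomal SNARE, 44.2 and 40.5 TPM, Plekhm1, an adaptor of RAB7 and LC3, 25.7 and 32.2 TPM and Vps16, a HOPS subunit, 21.9 and 29.6 TPM.

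The 14 genes of LC3-associated phagocytosis and pathogen response were all detected and had the highest median, 58.8 TPM. Lgals3, a galectin that marks damaged vacuoles, had 169 and 180 TPM. Trim30a, a TRIM protein induced by interferon, had 128 and 168 TPM. Cybb, the catalytic subunit of the phagocyte NADPH oxidase, had 131 and 118 TPM, and Irgm1, an immunity-related GTPase, 93.8 and 93.2 TPM. Only 2 of the 73 pathway genes that averaged 10 counts or more passed 2-fold between replicates, against 6.21% of protein-coding genes, not matched on counts. They were Igtp, another immunity-related GTPase, at -1.13 on the log2 scale, and Tgm2, transglutaminase 2, at -1.06, both lower in replicate 2. Tgm2 was under 2-fold in the other quantification, at -0.97, and its counting interval ran from -1.21 to -0.90.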

How the data were processed

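Both libraries of the single group were used as deposited. Per the file headers, the authors' gene tables hold an expected count (an estimated, not always whole, number of reads) and TPM per gene, and their first transcript tables add the percent of a gene's TPM on each transcript. A second deposited transcript table, the other quantification, holds estimated counts and TPM. The assembly is mm10 with GENCODE M21. Aligner, quantifier and strandedness: not given in the sources used here. TPM was scaled by the authors over all targets. Entries that name no gene held 1.06% and 0.245% of counts and were left out.

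Symbols, transcript classes and exons came from GENCODE M21. Counts were rounded for edgeR 4.0.16, with TMM factors (0.945 and 1.06) from genes that averaged 10 counts or more. Ratios add 0.5 to each count. The calculation was tested on simulated data. DESeq2 1.42.0 gave alternative size factors. Exact 95% intervals are Clopper-Pearson and cover counting error only. With 2 libraries of 1 group no p-value was computed. Shares by counts are a transcript's part of its gene's expected count.

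All 40 members are named. Of the other pathway lists, the 4 highest, undetected genes and those past 2-fold are named. Single transcripts of Vmp1, Becn1, Map1lc3b, Pik3r4, Uvrag and Atg16l1 were singled out after their values were seen. The members and lists were chosen with earlier results of these data known.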

Additional observations from a re-analysis of the deposited data

How the results depend on the processing

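No paired analysis was possible because the series holds 1 group, so no groups share replicate numbers. Of 42 alternatives, 29 kept the value and 13 did not. For levels and shares, kept meant within the replicate spread. For numbers of genes it meant within 1.5 times, or equal where the number was 0. For the median replicate ratio it meant the same sign and within 0.14, the median half-width of the members' counting intervals. Leaving out a replicate gave 38 to 39 members detected, 72 to 73 other pathway genes detected, a median level of 5.87 to 7.91 TPM, 5 to 6 members led by a noncoding form, a retained-intron share of 30.2% to 36.5% and 0 members past 2-fold between quantifications. A TPM minimum of 5 left 24 members detected. The median level was 4.18 TPM in the other quantification, 37.96 as CPM and 31.8 as TPM over protein-coding genes, which are other scales by construction. The median replicate ratio was 0.31 from TPM and 0.24 from library totals, where the protein-coding medians were 0.20 and 0.17. At a fold of 1.5, 1 member (Vmp1) differed between replicates and 1 (Atg10) between quantifications. On TPM in place of CPM, 3 members (Gabarap, Gabarapl1 and Map1lc3a) were over 2-fold lower in the other quantification in both libraries, where the protein-coding medians were -1.04 and -0.60. Members led by a noncoding transcript numbered 10 in the other quantification and 3 by counts. The retained-intron share was 39.9% in the other quantification and 11.0% by counts; the cause was not tested. Chosen after seeing the data, the median level with Vmp1-201 in place of Vmp1 was 6.75 TPM, and the median ratio of 26 members without overlapping exons was 0.08. Depth limits Map1lc3a, Wipi1 and Atg10, which had under 100 counts in each library.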
